A study of Caenorhabditis elegans with 12 samples.

Results

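Aminoacyl-tRNA synthetase genes were followed in 4 strains of the nematode Caenorhabditis elegans. Their members were the protein-coding genes whose WormBase symbol is a letter followed by ars-1 or ars-2, which gave 31 genes of the 46926 in the expression table. Of these, 20 carry the ending -1 and 11 the ending -2, and 11 amino acids have a gene of each ending. All 31 had at least 1 TPM in at least 3 libraries and were tested. TPM is a length-corrected share of the transcripts of a library, so levels of different genes can be set side by side. RNA came from whole worms at the last larval stage (L4), with 3 biological replicates per strain, 12 libraries in all. The strains were the double mutant nuo-6;itr-1, the single mutant nuo-6(qm200), the single mutant itr-1(sa73) and N2, the laboratory wild type. nuo-6 encodes a subunit of mitochondrial complex I and itr-1 the inositol trisphosphate receptor, a calcium release channel of the endoplasmic reticulum. Both alleles are point mutations that lower function, carried by the whole animal. All 4 strains ate HT115 bacteria with an empty RNA interference vector, and each culture held about 1000 synchronised animals. The series title places the study in the lifespan extension that follows mitochondrial stress.

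Aminoacyl-tRNA synthetases join each amino acid to its transfer RNA, the step that feeds ribosomes. Animal cells make protein in the cytosol and inside mitochondria, where a separate ribosome translates the few proteins of the mitochondrial genome, most of them respiratory chain subunits. In worms most -1 genes encode the cytosolic enzyme and most -2 genes the mitochondrial enzyme. The numbering does not follow the compartment everywhere: aars-2 is the cytosolic and aars-1 the mitochondrial alanyl enzyme, and vars-1 is the mitochondrial valyl enzyme, whose cytosolic counterpart is named glp-4. Some amino acids have no second gene because a single gene serves both compartments, as is known for gars-1 (glycine) and kars-1 (lysine). The compartments in these sentences are background knowledge and were not measured.

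Other features of the libraries differed between the strains and apply to every comparison given here. Genes of cytosolic ribosomal proteins took 22.7 to 24.1% of all TPM in nuo-6;itr-1, 21.7 to 22.0% in nuo-6, 25.9 to 27.4% in itr-1 and 27.2 to 28.5% in N2. A stage score, averaged on the log2(TPM + 1) scale over 21 genes of oocytes and young embryos, was 4.47 to 5.79 in nuo-6;itr-1, 4.64 to 4.87 in nuo-6, 4.91 to 6.06 in itr-1 and 3.38 to 4.28 in N2. The 25 germ line markers summed to 869 to 1942 TPM in nuo-6;itr-1, 1020 to 1145 TPM in nuo-6, 1263 to 2462 TPM in itr-1 and 698 to 1018 TPM in N2. The 8 body wall muscle markers summed to 5713 to 5782 TPM in nuo-6;itr-1, 7160 to 7342 TPM in nuo-6, 6476 to 6622 TPM in itr-1 and 7531 to 7678 TPM in N2. The 8 neuron markers summed to 611 to 670 TPM in nuo-6;itr-1, 522 to 597 TPM in nuo-6, 441 to 485 TPM in itr-1 and 377 to 401 TPM in N2, with no overlap between strains. The 9 intestine markers summed to 5125 to 6318 TPM in nuo-6;itr-1, 4207 to 4644 TPM in nuo-6, 5531 to 6367 TPM in itr-1 and 4733 to 4922 TPM in N2. The 9 markers of hypodermis and moulting summed to 1241 to 1893 TPM in nuo-6;itr-1, 1911 to 2189 TPM in nuo-6, 1404 to 1997 TPM in itr-1 and 1578 to 1791 TPM in N2. The 13 sperm markers summed to 255 to 616 TPM in nuo-6;itr-1, 425 to 474 TPM in nuo-6, 510 to 675 TPM in itr-1 and 335 to 418 TPM in N2. No marker of these lists was at 0 in every library. In nuo-6 against N2, the sums of all 6 marker lists did not overlap. The part of these markers in the synthetase results was not tested, apart from the stage score, which was added to the model as an alternative. In whole worms, fewer cells of a type and less RNA per cell cannot be told apart. The mutated genes were transcribed in all strains (nuo-6 at 309 ± 19.3 TPM in nuo-6;itr-1, 392 ± 15.1 in nuo-6, 280 ± 13.6 in itr-1 and 324 ± 7.18 in N2, SD, n = 3), so transcript levels of these point alleles do not check the labels.

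The -1 genes were the more abundant class in every strain. In N2 their mean levels ran from 11.5 TPM for aars-1 and 20.0 TPM for vars-1 to 175 TPM for pars-1, the prolyl enzyme, with a median of 95.5 TPM. The -2 genes of N2 ran from 12.4 TPM for rars-2 to 104 TPM for aars-2, with a median of 21.2 TPM, and the next highest was sars-2 at 38.02 TPM. The lowest -1 levels and the highest -2 level thus belonged to the alanine and valine genes, whose numbers do not follow the compartment. Replicates lay close together: the median coefficient of variation over members was between 2.41 and 6% for each class and strain.

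Summed levels of the classes moved in opposite directions in the nuo-6 strains. The 20 genes of the -1 class summed to 1776, 1739 and 1789 TPM in nuo-6;itr-1, to 1690, 1664 and 1670 TPM in nuo-6, to 1951, 1877 and 1828 TPM in itr-1 and to 1907, 2002 and 1953 TPM in N2. Both strains with the nuo-6 mutation lay below both strains without it, with no overlap. The 11 genes of the -2 class summed to 384, 385 and 391 TPM in nuo-6;itr-1, to 399, 402 and 408 TPM in nuo-6, to 342, 333 and 323 TPM in itr-1 and to 320, 338 and 327 TPM in N2. Here the nuo-6 strains lay above the others, again with no overlap, while itr-1 and N2 overlapped. The ratio of the sums was 4.58 ± 0.05 in nuo-6;itr-1, 4.16 ± 0.07 in nuo-6, 5.67 ± 0.04 in itr-1 and 5.96 ± 0.02 in N2 (SD, n = 3). This ratio is taken within a library and does not depend on how libraries are scaled.

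**Figure D1:**
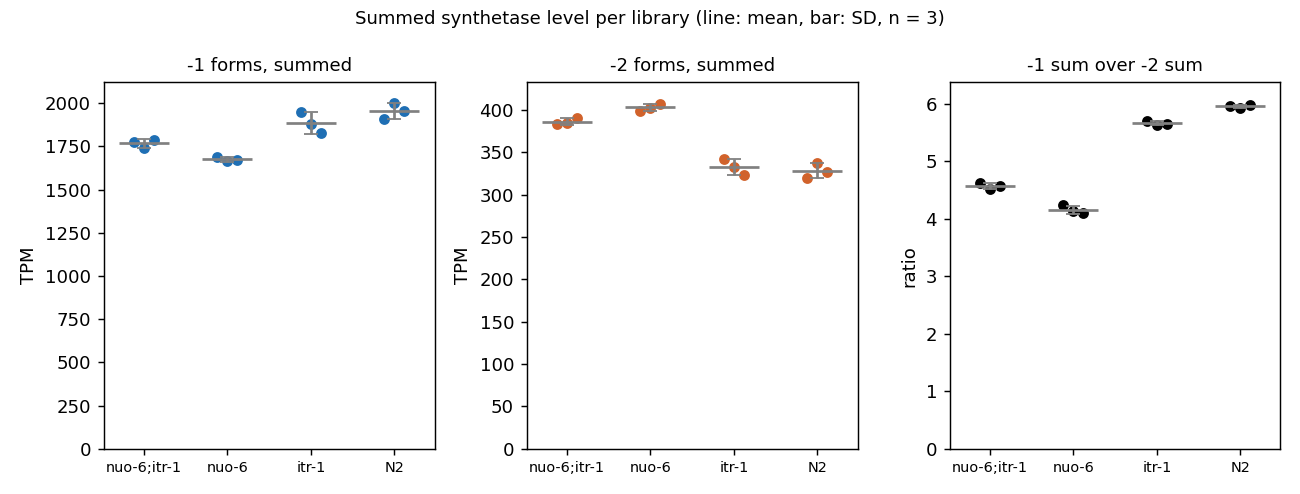
Summed TPM of the 20 genes of the -1 class (left), of the 11 genes of the -2 class (middle) and their ratio (right) in each library, by strain; lines are means and bars SD of 3 libraries. The ratio is lowest in nuo-6 (4.10 to 4.24), next in nuo-6;itr-1 (4.52 to 4.63), then in itr-1 (5.64 to 5.71) and highest in N2 (5.93 to 5.97).

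In nuo-6 against N2, the comparison that asks what the complex I mutation does on its own, -2 genes were mostly higher and -1 genes mostly lower. Changes are given as log2 fold ± SE on the log2(TPM + 1) scale from limma, and a gene was called changed where its p, adjusted over all 15230 tested genes by Benjamini-Hochberg, was under 0.05. By that rule 27 of the 31 members changed, 12 up and 15 down, where 52.3% of all tested genes changed, 37.3% up and 15% down. Of the 11 genes of the -2 class 9 rose and 1 fell, with a median of 0.51. Of the 20 genes of the -1 class 14 fell and 3 rose, with a median of -0.26. The median of all tested genes was 0.18 in this comparison. TPM is a share, so a fold is relative to the rest of the library, and re-closing TPM without cytosolic ribosomal protein genes gave a median of 0.09.

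The asparaginyl gene nars-2 (chromosome III, 11488353 to 11500747, minus strand, WBcel235) had the largest change of any member. It stood at 34.2, 33.1 and 35.1 TPM in nuo-6 worms, against 16.6, 18.3 and 17.3 TPM in N2. Every nuo-6 library was above every N2 library, and the log2 fold was 0.94 ± 0.06 (adjusted p = 1.08e-06). The seryl gene sars-2 (chromosome IV, 4357636 to 4359947, plus strand) had 59.2, 57.8 and 58.3 TPM in nuo-6 and 37.1, 39.6 and 37.4 TPM in N2. It rose by 0.61 ± 0.05 (adjusted p = 4.57e-06) with no overlap of libraries. The arginyl gene rars-2 (chromosome II, 6125559 to 6127942, plus strand) had 20.0, 21.0 and 20.0 TPM in nuo-6 and 11.7, 12.3 and 13.1 TPM in N2, a rise of 0.67 ± 0.09 (adjusted p = 0.000127). ears-2 for glutamate averaged 28.3 ± 0.727 TPM in nuo-6 and 19.1 ± 1.49 TPM in N2 (SD, n = 3 each) and rose by 0.54 ± 0.07 (adjusted p = 8.58e-05). yars-2 for tyrosine averaged 33.5 ± 1.22 TPM in nuo-6 and 23.0 ± 2.18 TPM in N2 (SD, n = 3 each) and rose by 0.53 ± 0.07 (adjusted p = 0.000159). dars-2, iars-2, lars-2 and fars-2, for aspartate, isoleucine, leucine and phenylalanine, also rose, by 0.51, 0.38, 0.30 and 0.19. The prolyl gene pars-2 did not pass, at 23.0 ± 2.17 TPM in nuo-6 and 21.2 ± 1.68 TPM in N2, and its libraries overlapped. fars-2 was the weakest of the rises: its adjusted p of 0.028 became as high as 0.118 when nuo-6 replicate 1, nuo-6 replicate 3 or N2 replicate 1 was left out.

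**Figure D2:**
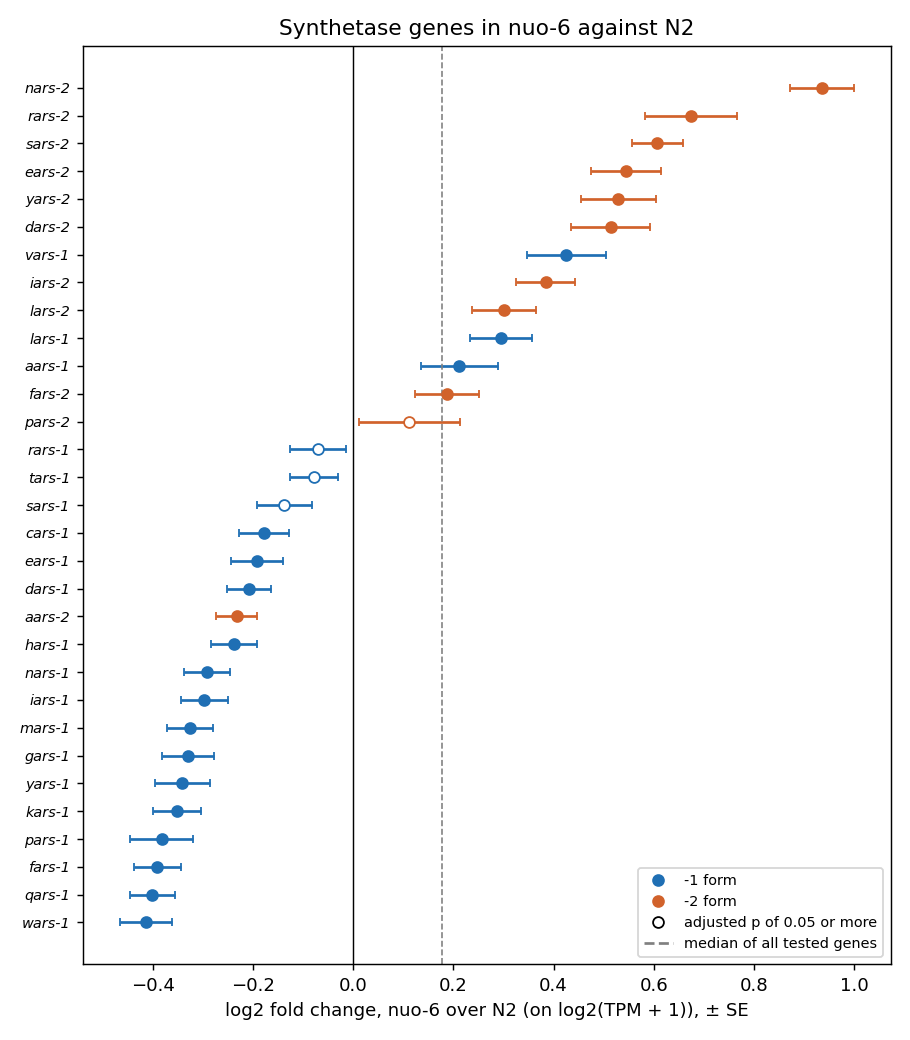
Log2 fold of nuo-6 over N2 (± SE, on log2(TPM + 1), 3 libraries each) for the 31 synthetase genes, ordered by size, -1 genes in blue and -2 genes in orange. Open circles mark the 4 genes with an adjusted p of 0.05 or more, and the dashed line is the median of all tested genes, 0.18.

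Falls among the -1 genes were more alike, and on this scale smaller. Measured from the median of all tested genes, the class medians were -0.44 for the -1 class and 0.34 for the -2 class. Which class moved more thus depends on the reference. The glutaminyl gene qars-1 (chromosome IV, 15008503 to 15013183, minus strand), which has no -2 partner, had 71.8, 69.0 and 69.1 TPM in nuo-6 and 90.7, 93.7 and 93.7 TPM in N2. All nuo-6 libraries were lower, and the fold was -0.40 ± 0.05 (adjusted p = 3.43e-05). kars-1, the lysyl gene, had 122, 122 and 124 TPM in nuo-6 and 150, 159 and 161 TPM in N2, a change of -0.35 ± 0.05 (adjusted p = 0.000126). fars-1, the catalytic alpha subunit of the cytosolic phenylalanyl enzyme, averaged 73.4 ± 1.33 TPM in nuo-6 and 96.5 ± 1.74 TPM in N2 (SD, n = 3 each), a change of -0.39 ± 0.05 (adjusted p = 5.31e-05). The tryptophanyl gene wars-1 changed by -0.41 ± 0.05 (adjusted p = 7.86e-05) and the methionyl gene mars-1 by -0.33 ± 0.05 (adjusted p = 0.000168). The other 9 falls, of cars-1, dars-1, ears-1, gars-1, hars-1, iars-1, nars-1, pars-1 and yars-1, lay between -0.38 and -0.18. tars-1, rars-1 and sars-1, for threonine, arginine and serine, did not pass. Genes with a -2 partner and genes without one had like counts: 7 of 11 and 7 of 9 fell.

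The direction of both classes held under another scaling, with different counts. Median-of-ratios scaling moved the median of all tested genes to 0.01. It then called 17 of 20 genes of the -1 class lower and 1 higher, and 7 of 11 of the -2 class higher and 1 lower, where 24.6% of all genes were called higher and 24.5% lower. lars-2 and fars-2 were the rises of the -2 class that did not pass there (0.12 and 0.00). With the stage score in the model, 14 genes of the -1 class were lower and 2 higher, and 8 of the -2 class were higher and 1 lower, where 32.8% of all genes were higher and 17.1% lower. Without all libraries numbered 2, which had the highest stage score of each strain, the counts were 12 lower and 2 higher of the -1 class, and 9 higher and 1 lower of the -2 class, where 36% of 14942 genes tested were higher and 12.7% lower.

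Exceptions to the split by number were few, and they are named here after their values were seen. aars-2, the cytosolic alanyl gene, was the single -2 gene that fell: it had 88.9, 88.5 and 88.8 TPM in nuo-6 and 104, 106 and 103 TPM in N2, a change of -0.23 ± 0.04 (adjusted p = 0.000785). Among the 3 -1 genes that rose, vars-1 and aars-1 encode mitochondrial enzymes. vars-1 had 26.04, 29.4 and 26.4 TPM in nuo-6 and 18.97, 20.8 and 20.3 TPM in N2, a rise of 0.43 ± 0.08 (adjusted p = 0.00104). aars-1 had 13.2, 14.4 and 12.8 TPM in nuo-6 and 11.04, 11.6 and 11.8 TPM in N2, a rise of 0.21 ± 0.08 (adjusted p = 0.0366). The aars-1 call is weak. It was lost (adjusted p up to 0.140) without nuo-6;itr-1 replicate 1, nuo-6 replicate 1 or 2, or any of N2 replicates 1, 2 and 3, and the fold was 0.03 with median-of-ratios scaling and -0.06 after quantile normalization. Regrouped by known compartment, the 12 genes of enzymes for mitochondria alone comprised 11 that rose and pars-2, which did not pass. The other 19 comprised 15 that fell, 3 that did not pass and lars-1, which rose. Among the 15 were aars-2 and also gars-1 and kars-1, which serve both compartments. Median-of-ratios scaling gave 8 of 12 higher and 0 lower, and 18 of 19 lower and 0 higher. This regrouping uses knowledge of the alanine and valine genes with their values known, so its counts are a description.

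Genes of the same enzymes that the naming rule leaves out were read as well. fars-3, the beta subunit that pairs with fars-1, averaged 66.1 ± 1.74 TPM in nuo-6 and 93.7 ± 1.85 TPM in N2 (SD, n = 3 each), a change of -0.50 ± 0.05 (adjusted p = 8.55e-06). Its fall was of a size with that of fars-1. glp-4, the cytosolic valyl enzyme, averaged 69.4 ± 0.988 TPM in nuo-6 and 91.2 ± 4.62 TPM in N2 (SD, n = 3 each), a change of -0.39 ± 0.05 (adjusted p = 0.000126). vars-1 and glp-4, which charge the same amino acid, therefore moved in opposite directions in the same libraries.

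Pairs for the same amino acid were compared inside each library, as log2(TPM + 1) of the -1 gene minus that of the -2 gene. In nuo-6 against N2 the difference was lower, without overlap of libraries, for 9 of the 11 pairs, by 0.50 to 1.23. The asparagine pair moved most, to 1.09 in nuo-6 against 2.31 in N2. For alanine, where the -2 gene is the cytosolic one, the difference was 0.44 higher. For leucine it was 1.93 in nuo-6 and 1.94 in N2, and the libraries overlapped. Each non-overlapping pair had an exact two-sided permutation p of 0.1, the smallest that 3 libraries against 3 allow, so no single pair can pass 0.05. Between nuo-6;itr-1 and itr-1 the same 8 pairs other than proline were lower, by 0.29 to 0.75, and alanine and leucine were higher. In itr-1 against N2, 7 of the 11 pairs were also lower without overlap, with changes of -0.36 to -0.09. Alanine and leucine were higher there too. How often other gene pairs move without overlap was not counted.

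**Figure D3:**
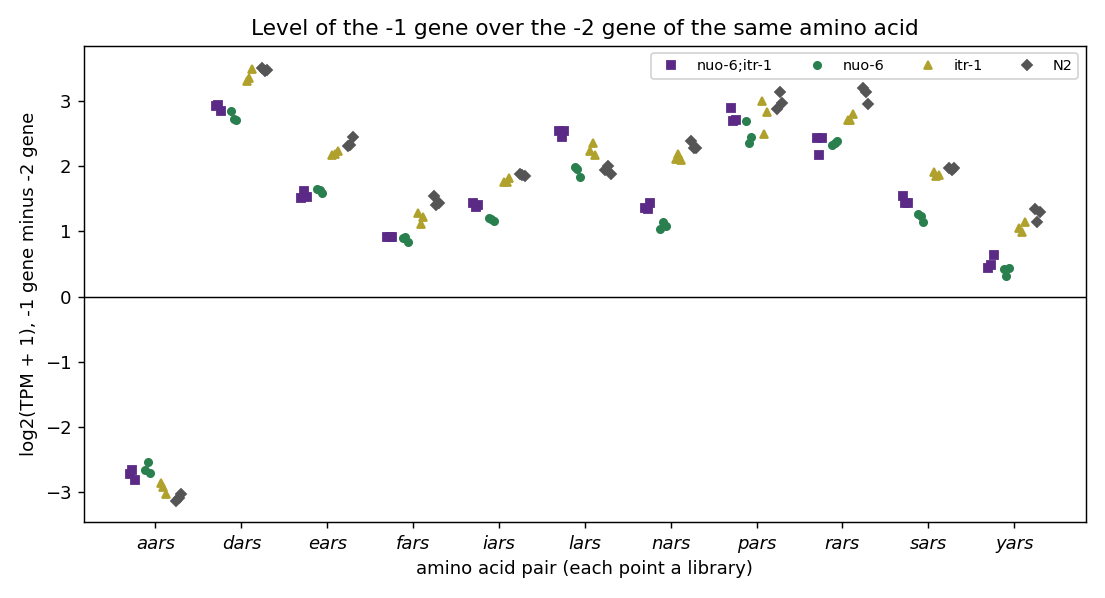
Difference in log2(TPM + 1) between the -1 gene and the -2 gene for 11 amino acids; each point is a library, strains from left to right nuo-6;itr-1, nuo-6, itr-1 and N2. Squares and circles of the nuo-6 strains lie below the triangles and diamonds of itr-1 and N2 for most pairs, above them for aars, and lars is highest in nuo-6;itr-1.

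The effect of the nuo-6 mutation was measured again in worms that carry the itr-1 mutation, in nuo-6;itr-1 against itr-1, which shares no library with nuo-6 against N2. Here 18 of 31 members changed, 9 up and 9 down, where 45.7% of all tested genes changed, 29.3% up and 16.4% down. Over both classes the rises are thus near the background, and the split is by class: 7 of 11 genes of the -2 class rose and 1 fell, while 8 of 20 of the -1 class fell and 2 rose. The median was 0.38 in the -2 class and -0.11 in the -1 class, beside 0.09 for all genes. nars-2 had 30.2, 30.9 and 28.3 TPM in nuo-6;itr-1, against 19.9, 18.2 and 18.9 TPM in itr-1, a rise of 0.62 ± 0.06 (adjusted p = 3.23e-05). sars-2 had 51.8, 52.3 and 55.2 TPM in nuo-6;itr-1 and 39.3, 37.0 and 37.6 TPM in itr-1, a rise of 0.47 ± 0.05 (adjusted p = 4.58e-05). Neither gene's libraries overlapped. ears-2 rose by 0.55 ± 0.07 (adjusted p = 0.000141), at 31.2 ± 0.956 TPM in nuo-6;itr-1 and 21.0 ± 1.26 TPM in itr-1 (SD, n = 3 each). kars-1 fell furthest: 121, 125 and 118 TPM in nuo-6;itr-1, against 168, 170 and 158 TPM in itr-1, a change of -0.44 ± 0.05 (adjusted p = 4.80e-05). mars-1 changed by -0.31 ± 0.05 (adjusted p = 0.000380). All 9 rises were among the 12 in nuo-6 against N2 (75.0% of those), and all 9 falls were among its 15 (60.0% of those). The same share over all tested genes was not counted, so these percentages have no background beside them. The falls of aars-2, nars-1 and yars-1 had adjusted p of 0.0377, 0.0455 and 0.0379 and were each lost when 1 library was left out. The call of nars-1 was lost (adjusted p up to 0.129) without any library but itr-1 replicate 3, and that of aars-2 (up to 0.101) without any but itr-1 replicate 2 and N2 replicates 2 and 3. The call of yars-1 was lost (up to 0.106) without nuo-6;itr-1 replicate 1 or 2, nuo-6 replicate 3, or itr-1 replicate 1 or 3. Median-of-ratios scaling gave 14 falls and 2 rises in the -1 class, and 7 rises and 1 fall in the -2 class, where 21.5% of all genes were called higher and 22.5% lower.

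**Figure D4:**
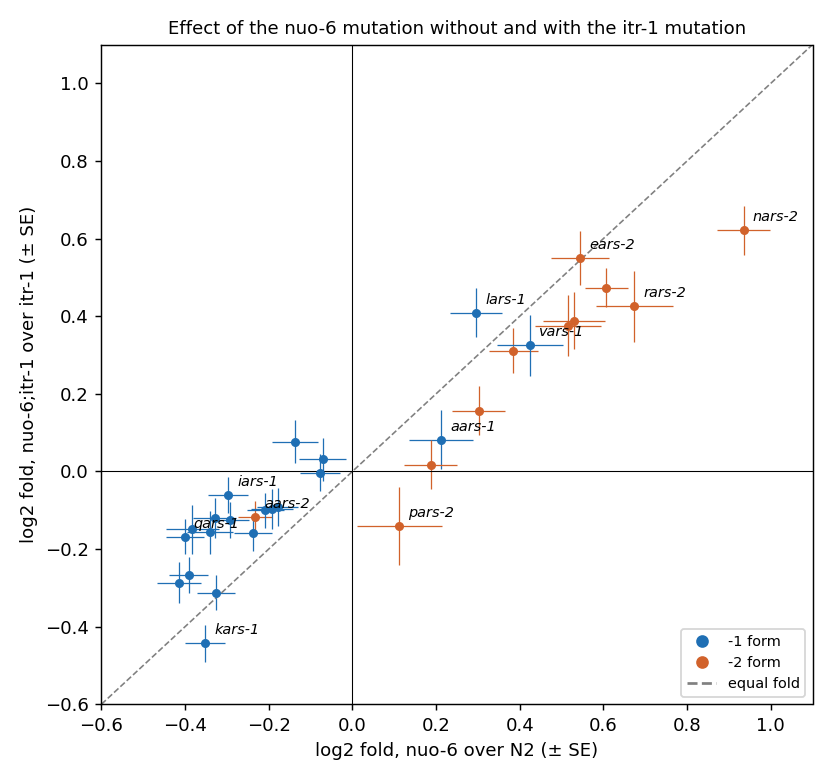
Log2 fold of nuo-6;itr-1 over itr-1 (vertical, ± SE) against log2 fold of nuo-6 over N2 (horizontal, ± SE) for the 31 genes, on log2(TPM + 1), 3 libraries per strain; the dashed line is equal fold. Most -2 genes (orange) lie in the upper right below the line and most -1 genes (blue) in the lower left above it. Folds on this scale are thus mostly smaller with the itr-1 mutation. lars-1 and kars-1 have larger folds with it, and ears-2 lies close to the line (0.54 without and 0.55 with it). The interaction, which tests this difference gene by gene, passed for a share of members near the background.

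The itr-1 mutation alone moved few members. In itr-1 against N2, 6 of 31 changed, 2 up and 4 down, where 40.1% of all tested genes changed, 29% up and 11.1% down. The falls were pars-1 (-0.32 ± 0.06, adjusted p = 0.00330), qars-1 (-0.21 ± 0.05, adjusted p = 0.00501), fars-1 (-0.19 ± 0.05, adjusted p = 0.00982) and gars-1 (-0.20 ± 0.05, adjusted p = 0.0126). pars-1 had 154, 130 and 137 TPM in itr-1 and 173, 178 and 174 TPM in N2, without overlap. The rises were lars-1 (0.33 ± 0.06, adjusted p = 0.00272) and rars-2 (0.28 ± 0.09, adjusted p = 0.0322). rars-2 lost its call without itr-1 replicate 1 or 2 or N2 replicate 1 or 2, with an adjusted p of up to 0.113. The class medians were near 0, but the median of all tested genes was higher. All members except lars-1 and rars-2 lay below that median, pars-1 furthest at -0.46 from it. The count depends on scaling. With median-of-ratios scaling 17 members were lower and 0 higher, where 21.2% of all genes were called lower and 17.3% higher, and lars-1 had an adjusted p of 0.0585 there. The stage score in the model left 1 call, where 12.9% of all genes passed, and the omission of the libraries numbered 2 left 3, where 32% did.

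Adding the itr-1 mutation to nuo-6 worms changed 3 of 31 members, where 15.4% of all tested genes changed in nuo-6;itr-1 against nuo-6, 9.99% up and 5.46% down, so the count is near the background. The leucyl gene lars-1 (chromosome III, 4181549 to 4186801, minus strand) stood out by size. In mammals and yeast its homologue has been linked to leucine sensing by the growth kinase complex TORC1. lars-1 had 133, 122 and 137 TPM in nuo-6;itr-1, 98.3, 97.3 and 91.8 TPM in nuo-6, 103, 98.2 and 92.6 TPM in itr-1 and 75.8, 82.3 and 75.5 TPM in N2. Its nuo-6;itr-1 libraries lay above all others, nuo-6 and itr-1 overlapped, and N2 was lowest. The rise was 0.44 ± 0.06 over nuo-6 (adjusted p = 0.00115), 0.41 ± 0.06 over itr-1 (adjusted p = 0.000467) and 0.74 ± 0.06 over N2 (adjusted p = 3.00e-06). All 3 of these calls held with median-of-ratios scaling, at 0.36, 0.31 and 0.47, while its rise of 0.30 in nuo-6 against N2 became 0.11 there and did not pass (adjusted p = 0.178). Its partner lars-2, the mitochondrial leucyl gene, had 22.1 ± 0.472 TPM in nuo-6;itr-1, 24.4 ± 0.517 in nuo-6, 19.8 ± 1.44 in itr-1 and 19.6 ± 0.475 in N2 (SD, n = 3).

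The other calls in nuo-6;itr-1 against nuo-6 were a rise of tars-1 (0.17 ± 0.05, adjusted p = 0.0400) and a fall of pars-2 (-0.35 ± 0.10, adjusted p = 0.0398). pars-2 had 16.6, 17.8 and 18.96 TPM in nuo-6;itr-1 and 20.5, 24.5 and 24.0 TPM in nuo-6. Both calls lie near the threshold and were lost when any of several single libraries was left out. tars-1 was lost without nuo-6;itr-1 replicate 1 or 3, any nuo-6 replicate or N2 replicate 3 (adjusted p up to 0.142), and with median-of-ratios scaling (0.09, adjusted p = 0.245). pars-2 was lost without any nuo-6;itr-1 replicate, nuo-6 replicate 2 or 3, or N2 replicate 3 (adjusted p up to 0.141). The count of 3 became 1 without nuo-6;itr-1 replicate 1, nuo-6;itr-1 replicate 3, nuo-6 replicate 2, nuo-6 replicate 3 or N2 replicate 3.

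**Figure D5:**
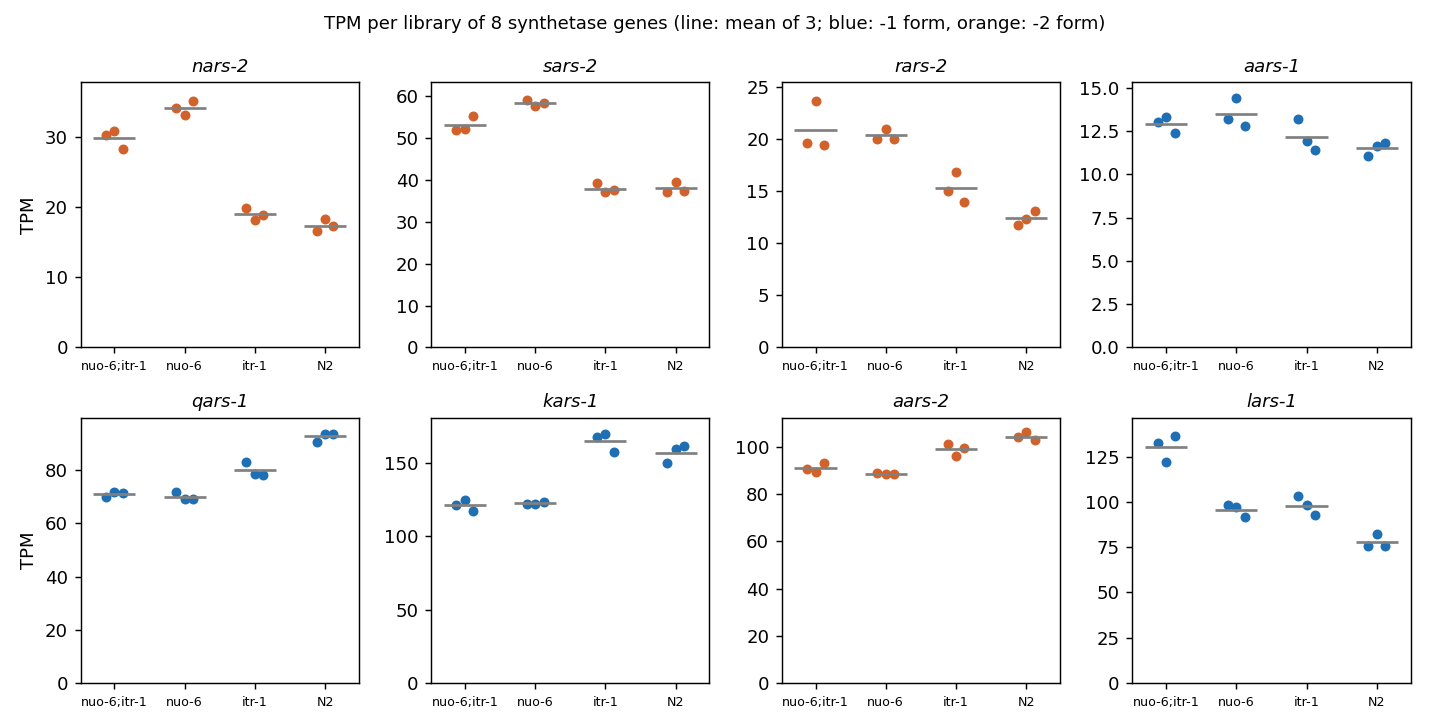
TPM in each library for 8 synthetase genes, by strain; lines are means of 3 libraries, -1 genes in blue and -2 genes in orange. nars-2, sars-2, rars-2 and aars-1 have higher means in the nuo-6 strains than in itr-1 and N2, qars-1, kars-1 and aars-2 lower ones, and lars-1 is highest in nuo-6;itr-1 (122 to 137 TPM).

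The double mutant against N2 had 25 of 31 members changed, 10 up and 15 down, where 63.3% of all tested genes changed, 46.3% up and 17% down. This comparison shares the N2 libraries with both single mutant comparisons. Of the -2 class 8 rose and 1 fell, with nars-2 at 0.75 ± 0.06 (adjusted p = 3.10e-06), rars-2 at 0.71 ± 0.09 (adjusted p = 6.30e-05) and ears-2 at 0.68 ± 0.07 (adjusted p = 1.17e-05). Of the -1 class 14 fell and 2 rose, with fars-1 at -0.46 ± 0.05 (adjusted p = 1.19e-05) and pars-1 at -0.47 ± 0.06 (adjusted p = 8.36e-05). With median-of-ratios scaling 6 of the -2 class were higher and 3 lower, and 17 of the -1 class were lower and 1 higher, where 28.9% of all genes were called higher and 29% lower. The lower -2 genes there were aars-2 (-0.46), pars-2 (-0.50) and fars-2 (-0.17, against 0.09 without this scaling), and iars-2 no longer passed (0.04). pars-1 had 129, 120 and 130 TPM in nuo-6;itr-1, below the 173, 178 and 174 TPM of N2. The lars-2 rise of 0.17 (adjusted p = 0.0395) turned to -0.09 with median-of-ratios scaling and -0.15 after quantile normalization, so its direction is not fixed by these data. It was also lost without any nuo-6;itr-1, nuo-6 or N2 replicate (adjusted p up to 0.116). Among the falls, ears-1 kept its call in 2 of 12 runs that left out 1 library (adjusted p up to 0.169). cars-1 and dars-1 each kept theirs in 7 of 12 (up to 0.108 and 0.116). The vars-1 rise of 0.39 became 0.12 with median-of-ratios scaling and did not pass (adjusted p = 0.157), nor did it after quantile normalization.

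Whether the nuo-6 effect differs with the itr-1 mutation was tested by the interaction, the log2 fold of nuo-6;itr-1 over itr-1 minus that of nuo-6 over N2. It passed for 3 of 31 members, where 12% of all tested genes passed, 3.69% positive and 8.32% negative, which is near the background. qars-1 (0.23 ± 0.06, adjusted p = 0.0398) and iars-1 (0.24 ± 0.07, adjusted p = 0.0434) were positive, and nars-2 (-0.31 ± 0.09, adjusted p = 0.0458) was negative. For qars-1 the nuo-6 effect was -0.17 with the itr-1 mutation and -0.40 without it, and for nars-2 it was 0.62 with and 0.94 without. By sign, 17 of 20 genes of the -1 class had a positive interaction and 9 of 11 of the -2 class a negative one. The medians were 0.11 and -0.14 beside -0.05 for all genes. Most tested genes were thus negative as well, and their share of each sign was not counted. The single calls are fragile. The count fell to 0 without nuo-6;itr-1 replicate 1 or 3, any nuo-6 replicate, itr-1 replicate 2 or 3, or N2 replicate 1 or 3, to 1 without N2 replicate 2, and to 0 when the stage score was in the model, where 5.29% of all genes passed. At an unadjusted p under 0.05 the limma count was 8 in the full fit and 5 with the stage score. Leaving out single libraries with a count of 0 left 5 to 8 genes at an unadjusted p under 0.05.

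Other genes of protein synthesis were counted in nuo-6 against N2 from lists of their own, to be read against the 37.3% of all tested genes that rose and the 15% that fell, or the 24.6% and 24.5% with median-of-ratios scaling. Of 10 genes listed as mitochondrial translation factors all 10 rose, with a median of 0.57. They were led by the elongation factor tsfm-1 (1.29 ± 0.06, adjusted p = 8.13e-08) and gfm-1 (0.87 ± 0.07, adjusted p = 3.22e-06), and 9 of 10 rose with median-of-ratios scaling. This list is broad: mtcu-1, mtcu-2 and mttu-1 on it modify mitochondrial tRNA. Of 70 mitochondrial ribosomal protein genes 46 rose and 0 fell with a median of 0.21, close to the 0.18 of all genes. Median-of-ratios scaling gave 11 higher and 8 lower, so their direction depends on scaling. Of 33 cytosolic initiation factors 26 fell and 2 rose, with eif-3.C at -0.68 ± 0.06 (adjusted p = 4.13e-06) and inf-1, the helicase eIF4A, at -0.57 ± 0.05 (adjusted p = 3.40e-06). Of 12 elongation and release factors 8 fell and 1 rose, with the release factor erfa-1 at -0.69 ± 0.05 (adjusted p = 3.14e-06). Of 78 cytosolic ribosomal protein genes 76 fell and 0 rose, with a median of -0.35. The -1 genes, with a median of -0.26, thus lay with the cytosolic factors. The -2 genes, at 0.51, lay near the 10 genes listed as mitochondrial factors (0.57) and above the 70 mitochondrial ribosomal protein genes (0.21).

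Lists of tRNA modification and of amino acid supply each held rises and falls in that comparison, where 37.3% of all genes rose and 15% fell. In both lists the share of falls was above that of all genes and the share of rises below it. Of 17 genes listed under tRNA modification 7 fell and 2 rose. With median-of-ratios scaling 12 fell and 1 rose, where 24.6% of all genes were called higher and 24.5% lower. The methyltransferase nsun-1 had -0.86 ± 0.06 (adjusted p = 1.70e-06). nsun-4, a mitochondrial family member in mammals, had 0.75 ± 0.07 (adjusted p = 6.21e-06). The list is broad: nsun-1, nsun-5 and tiam-1 on it are not established tRNA enzymes. It also leaves out mtcu-1, mtcu-2 and mttu-1, which were counted with the mitochondrial factors. Of 24 genes of the integrated stress and amino acid response 7 rose and 7 fell, and with median-of-ratios scaling 4 rose and 12 fell. Asparagine synthetase asns-1 had 1.26 ± 0.11 (adjusted p = 5.32e-06) and cbs-2 -1.05 ± 0.11 (adjusted p = 2.82e-05), both without that scaling. In nuo-6;itr-1 against nuo-6, 50 of 70 mitochondrial ribosomal protein genes fell and 0 rose, where 5.46% of all genes fell and 9.99% rose. With median-of-ratios scaling 59 fell, where 7.6% of all genes were called lower and 5.6% higher. The list was led by mrps-14 (-0.65 ± 0.04, adjusted p = 6.77e-06). In the same comparison 2 of the 10 genes listed as mitochondrial translation factors fell. Of the -2 synthetases only pars-2 did, joined by nars-2, sars-2 and lars-2 with median-of-ratios scaling (-0.27, -0.21 and -0.21).

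Gene models of the classes were compared by protein length and coding starts. Proteins of the -1 class are 417 to 1186 residues long with a median of 723.5, and those of the -2 class 418 to 970 with a median of 481, so the ranges overlap. aars-2 encodes 968 residues and aars-1 793. Transcripts with at least 2 different coding starts, which can add or drop a leading targeting peptide, are annotated for 7 of the 9 genes of the -1 class that lack a -2 partner (cars-1, gars-1, hars-1, kars-1, mars-1, qars-1 and tars-1). Only 1 of the 11 -1 genes with a partner, fars-1, has them, as do 5 of 11 -2 genes and 14.7% of all 19985 protein-coding genes. wars-1 and vars-1 have a single annotated coding start. The table gives 1 value per gene, so the starts cannot be told apart in these data: a fall of kars-1 or gars-1 is a fall of the sum of its forms.

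Many worm genes lie close behind another on the same strand, often in an operon. A gap of under 300 nucleotides to the upstream gene on the same strand was found for 5 of 11 -2 genes (dars-2, lars-2, nars-2, rars-2 and yars-2), 4 of 20 -1 genes (gars-1, rars-1, vars-1 and yars-1) and 12.6% of protein-coding genes. Of these upstream genes, tin-10 alone was called in the same direction as its member in nuo-6 against N2. tin-10, a mitochondrial import chaperone gene 119 nucleotides from nars-2, rose by 0.38 ± 0.06 (adjusted p = 0.000364), less than the 0.94 of nars-2. C29H12.2, 120 nucleotides from rars-2, fell by 0.78 ± 0.07 on the log2 scale (adjusted p = 7.31e-06) where rars-2 rose. T10F2.2 and Y105E8A.20, upstream of gars-1 and yars-1, rose by 0.23 and 0.19 (adjusted p = 0.0123 and 0.0240) where those members fell. rpb-8, upstream of rars-1, fell by 0.50 (adjusted p = 9.10e-05) where rars-1 did not pass. miro-1, a gene of mitochondrial transport 200 nucleotides from yars-2, had -0.13 ± 0.06 and did not pass (adjusted p = 0.0969). Exons or introns of 15 members overlap another protein-coding gene, 3 on the same strand and 13 on the opposite strand. How reads in such overlaps were assigned is not given, so these members are uncertain to that extent. Y66D12A.24, on the strand opposite nars-2, had means of 11.4 TPM in nuo-6 and 9.11 TPM in N2. clec-87, opposite iars-2, had 60.8 TPM in nuo-6 and 16.4 TPM in N2, against 33.3 and 25.3 TPM for iars-2 itself. C25A1.20, which overlaps iars-2 on the same strand, had 53 TPM in nuo-6 and 38.9 TPM in N2. In nuo-6;itr-1 and itr-1 it had 49.4 and 37 TPM, against 31.4 and 25.1 TPM for iars-2. The part of clec-87 or C25A1.20 in the iars-2 rise was not tested.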

How the data were processed

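Polyadenylated RNA of whole L4 worms was sequenced in 12 libraries, 3 per strain, stranded per the labels' protocols, from RNA with an integrity number of 10. The authors deposited TPM values. The build WBcel235 comes from the submitters' processing notes. For the aligner, the counting tool, its use of strand, its treatment of multi-mapped reads and its annotation, nothing is stated (not given in the sources used here). TPM keeps no depth, so the depth is unknown and no counting interval is given. The number of libraries limits the precision. No libraries held identical values. What a replicate number shares across strains is not stated, and p-values measure the spread between cultures as labelled.

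Names and positions came from the Ensembl release 115 annotation of WBcel235, in which all 46926 identifiers were found. Genes that reached 1 TPM in fewer than 3 libraries were left out, and the other 15230 entered 1 limma fit (version 3.58.1, R 4.3.3) of log2(TPM + 1) over the 12 libraries, using eBayes with a mean trend (residual degrees of freedom 8, prior 2.85). Tests were two-sided, with Benjamini-Hochberg adjustment over all tested genes within each of 6 comparisons and a threshold of 0.05. The code was tested on simulated data. As alternatives, the pseudocount was 0.1 or 0.5, the filter was dropped or set to 5 TPM, libraries were rescaled by median-of-ratios or quantile normalization, eBayes had no trend, the stage score or the replicate number was a term, only the groups compared were fitted, or each library was left out. Leaving out all libraries numbered 2 and re-closing TPM without cytosolic ribosomal protein genes were chosen after seeing the data. The members, gene lists and tests were chosen with earlier results of these data known. Per comparison and class, full statistics are given for at most the 5 changed members of smallest adjusted p, and for each list at most the 2 of smallest adjusted p. Others named with a fold were chosen after their values were seen. Listed symbols that matched no gene were left out (10 of 19 mitochondrial translation factors, 33 of 36 initiation factors, 12 of 13 elongation and release factors and 17 of 26 tRNA modification genes matched). Sequences were not used here. Tables and plots used Python 3.11.15 with pandas 2.3.3, numpy 2.4.6, scipy 1.17.1 and matplotlib 3.10.9.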

Additional observations from a re-analysis of the deposited data

Results flagged for a closer look

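The effect of the nuo-6 mutation differed between worms with and without the itr-1 mutation for 3 synthetase genes by limma's interaction test. That count is near the background, since 12% of all tested genes passed. The log2 difference was 0.24 for iars-1 (adjusted p = 0.0434), which charges isoleucine and stood at 84.7 ± 2.68 TPM in nuo-6;itr-1, 76.7 ± 0.615 in nuo-6, 88.4 ± 3.58 in itr-1 and 94.5 ± 2.26 in N2 (SD, n = 3). It was 0.23 for qars-1 (adjusted p = 0.0398), which charges glutamine and stood at 71.1 ± 1.16 TPM in nuo-6;itr-1, 70.0 ± 1.62 in nuo-6, 80.0 ± 2.81 in itr-1 and 92.7 ± 1.72 in N2. It was -0.31 for nars-2 (adjusted p = 0.0458), the mitochondrial asparaginyl gene. With each library left out in turn, the adjusted p reached 0.0993 for iars-1, 0.0981 for qars-1 and 0.112 for nars-2.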

How the results depend on the processing

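Of 82 calls of single members over the 6 comparisons, 50 kept direction and threshold under every alternative run. Reversed were aars-1 in nuo-6 against N2 after quantile normalization (-0.059) and lars-2 in nuo-6;itr-1 against N2 with median-of-ratios scaling (-0.094) and quantile normalization (-0.153). Counts of changed members moved by over 1.5 times in 3 comparisons. For itr-1 against N2 the 6 became 17 with median-of-ratios scaling, 1 with the stage score and 3 without the libraries numbered 2. For nuo-6;itr-1 against nuo-6 the 3 became 5 with median-of-ratios scaling, quantile normalization or TPM re-closed without ribosomal protein genes, 6 with the stage score and 1 without the libraries numbered 2. For the interaction the 3 became 6 with median-of-ratios scaling and 0 with eBayes without trend, the stage score or without the libraries numbered 2 (6, 5 and 2 at an unadjusted p under 0.05). The cause was not tested. Leaving out each library gave 25 to 28 calls in nuo-6 against N2, 5 to 6 in itr-1 against N2, 21 to 25 in nuo-6;itr-1 against N2, 1 to 4 in nuo-6;itr-1 against nuo-6, 15 to 18 in nuo-6;itr-1 against itr-1 and 0 to 3 in the interaction. With a replicate block the counts were 28, 6, 25, 2, 17 and 3 in that order, and it ended the calls of tars-1 in nuo-6;itr-1 against nuo-6 (adjusted p = 0.0519) and nars-1 in nuo-6;itr-1 against itr-1 (0.0515); same-numbered libraries did not deviate together throughout (correlations -0.02 to 0.51 over 18 pairs, 11 above 0.1), and 7 of 12 libraries correlated best with their own number. TPM hides depth, so how far counting error limits low genes such as aars-1 is unknown.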
